A study of Mus musculus with 9 samples.

Results

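The 10 genes described here are the intestinal crypt stem cell genes *Olfm4*, *Lgr5*, *Ascl2* and *Smoc2*, and the Wnt target genes *Axin2*, *Sox9*, *Rnf43*, *Znrf3*, *Cd44* and *Myc*, chosen by their symbols. All 10 were found among the 48709 genes of the count table, and all 10 were among the 15002 genes with more than 100 reads that entered the tests. The RNA came from the duodenum, which is the small intestine next to the stomach, of male C57Bl6 mice aged 10 weeks. The mice had been given vehicle, calcitriol (1,25D3), or calcitriol and ZK (1,25D3 and ZK) per os 6 h earlier, with 3 libraries per treatment. 1,25D3 is the hormonal form of vitamin D and activates the vitamin D receptor, and ZK is an analog of it that antagonizes this receptor. Each library label also carries a number from 1 to 3, so that each number holds 1 library of each treatment label, and the labels do not say what the number marks.

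The epithelium of the small intestine is renewed from stem cells at the base of the crypts. Wnt ligands from Paneth cells and from the stroma bind Frizzled receptors with the co-receptors LRP5 and LRP6, which stabilizes beta-catenin, and beta-catenin with TCF factors then switches on target genes. R-spondins strengthen the signal through LGR receptors by removing RNF43 and ZNRF3, ubiquitin ligases that clear Frizzled from the cell surface, and AXIN2 restrains it inside the cell, so several of the targets are also inhibitors of the pathway.

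Apart from 1 close pair given below, the libraries did not group by treatment label. *Cyp24a1*, the enzyme that inactivates 1,25D3 and a classical target of its receptor, was at 6425 to 7633 TMM CPM (counts scaled to the size of the library, corrected by TMM) in the 3 libraries numbered 2 and at 2.47 to 9.13 in the other 6, whatever the treatment on the label. Libraries are therefore called by their labels throughout, and every direction between treatments rests on labels that this gene contradicts. Across all genes tested, the number accounted for 74% of the variance of log2 CPM and the treatment label for 9.79%. The mean chi-square per gene between 2 libraries, which is about 1 under sampling noise alone, was 1.82 to 5.48 among the 3 libraries numbered 1 and the library labelled 1,25D3 3, and 3.68 and 4.92 for vehicle with 1,25D3 and ZK of numbers 2 and 3. It was 95.9 to 398 for the other 28 pairs, which include all 8 pairs of the library labelled 1,25D3 2. Among pairs of the same treatment label only 1,25D3 1 with 1,25D3 3 was close, at 1.96, and the others were at 131 to 353. The library labelled 1,25D3 3 was at 4.94 from vehicle 1 and at 5.39 from 1,25D3 and ZK 1. It thus lay with number 1 rather than with its own number, and nearest there to the library of its own treatment label. Results for number 3 are also given without this library where that changes them. Total counts ranged from 22561400 to 41207455 per library.

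The bases upstream of the RefSeq start (build GRCm38.p6) are shown for the 3 genes that later differ between numbers 2 and 1, where they lie outside annotated exons, 5′ to 3′ on the strand of the gene. Capitals mark CCAAT boxes (CCAAT or ATTGG, that is, both strands).
Olfm4, chr14:80000052-80000250, forward strand: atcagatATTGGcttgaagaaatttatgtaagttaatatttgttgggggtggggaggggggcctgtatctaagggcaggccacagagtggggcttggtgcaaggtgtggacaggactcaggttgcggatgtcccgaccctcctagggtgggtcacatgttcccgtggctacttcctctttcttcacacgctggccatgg
Ascl2, chr7:142969265-142969514, reverse strand: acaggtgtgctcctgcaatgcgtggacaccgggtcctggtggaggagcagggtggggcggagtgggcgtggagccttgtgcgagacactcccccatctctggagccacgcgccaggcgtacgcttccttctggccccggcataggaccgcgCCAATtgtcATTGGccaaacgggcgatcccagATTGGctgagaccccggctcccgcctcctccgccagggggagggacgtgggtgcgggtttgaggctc
Rnf43, second start, chr11:87699647-87699896, forward strand: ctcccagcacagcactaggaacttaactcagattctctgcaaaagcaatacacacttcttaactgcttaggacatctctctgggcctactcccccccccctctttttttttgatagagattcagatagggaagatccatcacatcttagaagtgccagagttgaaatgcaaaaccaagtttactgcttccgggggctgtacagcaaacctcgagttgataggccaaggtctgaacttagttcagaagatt
*Ascl2* held 3 CCAAT boxes, whose first bases were 99, 90 and 67 bases upstream of the start, *Olfm4* held 1 at 243 bases, and *Rnf43* held none at either of its starts. This box was found within 250 bases upstream of 33.8% of the 32851 starts of all genes. The upstream 250 bases of *Ascl2* were 67.6% G or C with 19 CpG dinucleotides, against 54% and 4 for *Olfm4*, 45.2% and 2 for the second start of *Rnf43*, and medians of 52.4% and 6 over all starts. The core letters bound by TCF factors (CTTTGAA, or else CTTTGAT, or else CTTTGTA, or else CTTTGTT, on both strands, no overlap with the CCAAT letters) were in none of the 6 starts of the 5 members listed (*Olfm4*, *Ascl2*, *Axin2*, *Rnf43* and *Cd44*), and in 14.8% of all starts. These letters describe the windows only.

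*Olfm4*, which encodes a secreted glycoprotein of crypt base columnar cells, was by far the most abundant of the 10 transcripts. Per kilobase of annotated exon it averaged 81.8 TMM CPM over the 9 libraries, ranging from 41.5 to 139. *Smoc2* (5.94), *Rnf43* (5.59), *Myc* (4.41) and *Cd44* (4.09 TMM CPM per kilobase) followed, with ranges that overlapped from each to the next. *Sox9* (2.16), *Axin2* (2.09) and *Ascl2* (1.71 per kilobase) lay below *Cd44* without overlapping it and overlapped each other. *Znrf3* (0.535) and *Lgr5* (0.283 per kilobase) were lowest and overlapped each other but not *Ascl2*. *Lgr5* rested on 65 to 172 counts per library, *Ascl2* on 61 to 125 and *Znrf3* on 86 to 230, so these 3 genes carry the largest counting error. Exon lengths are of all annotated transcripts together, which lowers the level per kilobase where the gut uses a short form.

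Among the stem cell genes, *Olfm4* was at 249, 246 and 245 TMM CPM for number 1, in the libraries labelled vehicle, then 1,25D3, then 1,25D3 and ZK, an order kept for all values by library that follow. It was at 132, 149 and 123.0 in those numbered 2, and at 412, 237 and 390 in those numbered 3. All libraries numbered 2 were thus below all others, the libraries labelled vehicle 3 and 1,25D3 and ZK 3 were above all others, and the library labelled 1,25D3 3 was close to number 1. *Lgr5*, the R-spondin receptor that defines these stem cells, was at 3.00, 2.66 and 2.80 TMM CPM in number 1, 2.21, 2.09 and 2.45 in number 2, and 4.33, 3.17 and 3.44 in number 3. The 3 numbers did not overlap for *Lgr5*, with number 2 lowest and number 3 highest. *Ascl2*, a transcription factor that maintains the stem cell state, was at 3.04, 3.15 and 3.97 TMM CPM in number 1, 1.96, 2.24 and 1.86 in number 2, and 2.27, 3.71 and 2.75 in number 3. Here number 2 was lowest again, but the mean of number 1 was above that of number 3. *Smoc2*, a secreted matrix protein enriched in the stem cells, was at 40.2, 36.5 and 39.4 TMM CPM in number 1, 45.4, 37.6 and 42.3 in number 2, and 44.4, 40.5 and 45.2 in number 3. Its highest library was 1.24 times its lowest, the narrowest spread of the 10 genes, against 3.35 times for *Olfm4*.

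Of the feedback inhibitors, *Rnf43* was at 25.1, 25.7 and 23.8 TMM CPM in number 1, 49.3, 40.4 and 48.5 in number 2, and 46.5, 25.04 and 45.7 in number 3. The 4 libraries that resemble each other (number 1 and 1,25D3 3) were all below the other 5 for *Rnf43*. *Znrf3*, the paralog of *Rnf43*, was at 4.20, 4.54 and 4.55 TMM CPM in number 1, 4.298, 2.97 and 2.62 in number 2, and 5.79, 4.20 and 4.82 in number 3, so that number 2 overlapped both others through the library labelled vehicle 2. *Axin2*, the scaffold of the beta-catenin destruction complex, was at 10.1, 9.57 and 9.23 TMM CPM in number 1, 10.7, 11.5 and 11.7 in number 2, and 16.7, 9.13 and 15.0 in number 3. Its highest values were in the libraries labelled vehicle 3 and 1,25D3 and ZK 3. Reads of *Axin2* and of *Gm11670*, which overlaps 209 bases of its exons on the opposite strand, and of *Olfm4* and *Gm6999*, which shares 153 bases on the same strand, may not be told apart.

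Of the other targets, *Myc*, a transcription factor that drives growth and division, was at 10.1, 10.6 and 9.23 TMM CPM in number 1, 13.9, 12.8 and 14.2 in number 2, and 13.2, 9.91 and 14.0 in number 3. As for *Rnf43*, the 4 libraries of number 1 and 1,25D3 3 lay below the other 5. *Cd44*, a hyaluronan receptor of the crypt, was at 27.9, 26.8 and 27.6 TMM CPM in number 1, 26.0, 26.8 and 28.1 in number 2, and 31.9, 23.7 and 30.7 in number 3. *Sox9*, a transcription factor of stem and Paneth cells, was at 8.82, 9.64 and 9.31 TMM CPM in number 1, 8.56, 8.65 and 9.48 in number 2, and 7.45, 9.62 and 8.68 in number 3. Both varied little, with the highest library at 1.35 times the lowest for *Cd44* and 1.29 times for *Sox9*. In bulk tissue, fewer cells of a type and less RNA per cell cannot be told apart.

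**Figure D1:**
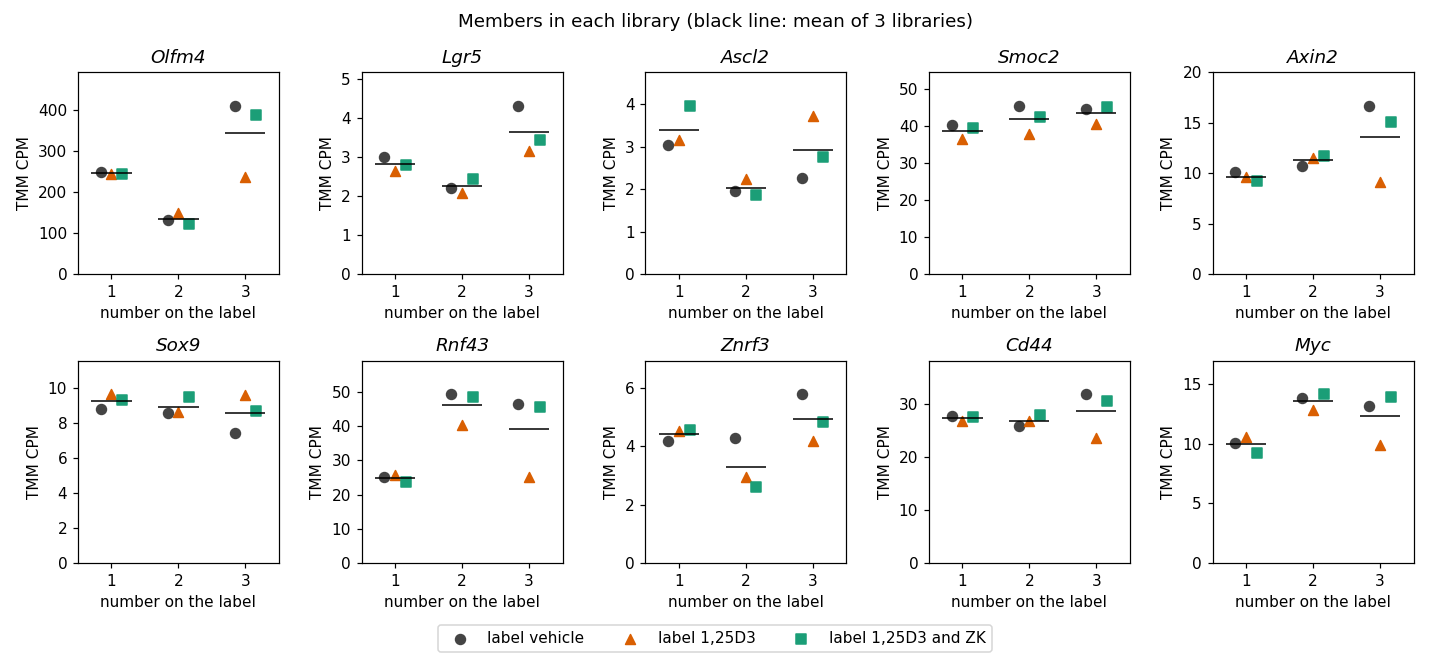
Level of each of the 10 genes in TMM CPM (vertical axes, each from 0) in the 9 libraries, by number on the label (horizontal axis) and treatment label (symbol), with a black line at the mean of 3 libraries. *Olfm4* was at 123.0 to 149 in number 2 and at 245 to 249 in number 1, and the 1,25D3 library of number 3 (237) lay with number 1.

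Comparing the number sets asks whether these genes follow the grouping that *Cyp24a1* follows. Between number 2 and number 1, *Rnf43* was higher and *Olfm4* and *Ascl2* were lower in number 2, and the other 7 genes were not called. A gene was called where edgeR's quasi-likelihood test on all genes gave an adjusted p below 0.05 with a log2 change beyond 0.58 in size. *Rnf43* averaged 46.1 ± 4.92 TMM CPM in number 2 against 24.8 ± 0.95 in number 1 (SD, n = 3), a log2 fold change of 0.89 (SE 0.20, adjusted p = 0.0069 in edgeR). *Olfm4* averaged 135 ± 13.3 against 247 ± 2.53, a log2 fold change of -0.87 (SE 0.18, adjusted p = 0.0047 in edgeR), and *Ascl2* 2.02 ± 0.198 against 3.39 ± 0.507, a log2 fold change of -0.74 (SE 0.20, adjusted p = 0.016 in edgeR). The calls of *Rnf43* and *Olfm4* held without any one library, whereas the adjusted p of *Ascl2* was 0.067 without the library labelled 1,25D3 and ZK 1, 0.054 without vehicle 2 and 0.063 without 1,25D3 and ZK 2. *Myc* had an adjusted p of 0.019 in edgeR at a log2 fold change of 0.45, under the minimum fold.

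The 3 calls among 10 genes stand beside 20.4% of all genes called in this comparison, 12.2% higher and 8.25% lower, so the share in these genes was near the background. The libraries of the numbers did not overlap for 6 of the 10 (*Olfm4*, *Lgr5*, *Ascl2*, *Axin2*, *Rnf43* and *Myc*), against 61.8% of all genes. The median log2 fold change of the 10 was -0.04, against 0.03 over all genes. *Lgr5* had a log2 fold change of -0.32 (95% interval -0.67 to 0.03), *Znrf3* of -0.44 (-0.87 to -0.01) and *Axin2* of 0.23 (-0.18 to 0.64). Of these 3, *Znrf3* was called, at -0.67 with an adjusted p of 0.02 in edgeR, without the library labelled vehicle 2.

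Between number 3 and number 2, *Olfm4*, *Lgr5* and *Znrf3* were called higher in number 3 and none was called lower. *Olfm4* averaged 346 ± 95.4 TMM CPM in number 3 (SD, n = 3), a log2 fold change of 1.36 over number 2 (SE 0.18, adjusted p = 0.0006 in edgeR). *Lgr5* averaged 3.65 ± 0.607 against 2.25 ± 0.183, a log2 fold change of 0.70 (SE 0.15, adjusted p = 0.0081 in edgeR), which fell to 0.56, under the minimum fold, without the library labelled vehicle 3. *Znrf3* had a log2 fold change of 0.60 (SE 0.19, adjusted p = 0.044 in edgeR) although its libraries overlapped, and its adjusted p was 0.069 to 0.17 with any one library left out other than vehicle 2 and 1,25D3 3. *Ascl2* did not overlap between these numbers, at a log2 fold change of 0.50 (95% interval 0.05 to 0.94, adjusted p = 0.10 in edgeR), and was called at 0.65 (adjusted p = 0.048) without vehicle 3. In this comparison 11.3% of all genes were called, 4.53% higher and 6.81% lower, and the libraries did not overlap for 3 of the 10 genes against 36.8% of all genes. The median log2 fold change of the 10 genes was 0.19, against 0.01 over all genes. Without the library labelled 1,25D3 3 the same 3 genes were called higher. *Olfm4* was then at a log2 fold change of 1.57 (adjusted p = 2.4e-08 in edgeR), *Lgr5* at 0.78 (adjusted p = 0.0012) and *Znrf3* at 0.70 (adjusted p = 0.0072). They stand beside 15.6% of all genes called, 6.51% higher and 9.09% lower.

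Between number 3 and number 1 none of the 10 genes and 0% of all genes were called by edgeR, while the unadjusted p was below 0.05 for 5 of the 10 and for 26.3% of all genes. With DESeq2 or limma voom none of the 10 was called either. The largest log2 fold changes were those of *Rnf43*, 0.66 (95% interval 0.22 to 1.10), *Axin2*, 0.51 (0.10 to 0.92), and *Olfm4*, 0.49 (0.09 to 0.89). Without the library labelled 1,25D3 3, which resembles number 1, these 3 genes were called higher in number 3. *Rnf43* was then at a log2 fold change of 0.89 (adjusted p = 6.7e-06 in edgeR), *Axin2* at 0.72 (adjusted p = 3.1e-05) and *Olfm4* at 0.70 (adjusted p = 1.3e-05), and 11.4% of all genes were called higher and 7.71% lower, 19.2% in all. *Lgr5* had a log2 fold change of 0.38 (95% interval 0.04 to 0.72) and *Myc* of 0.32 (0.03 to 0.60). The libraries did not overlap for *Lgr5* and *Smoc2*, 2 of the 10 genes, against 18.4% of all genes.

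**Figure D2:**
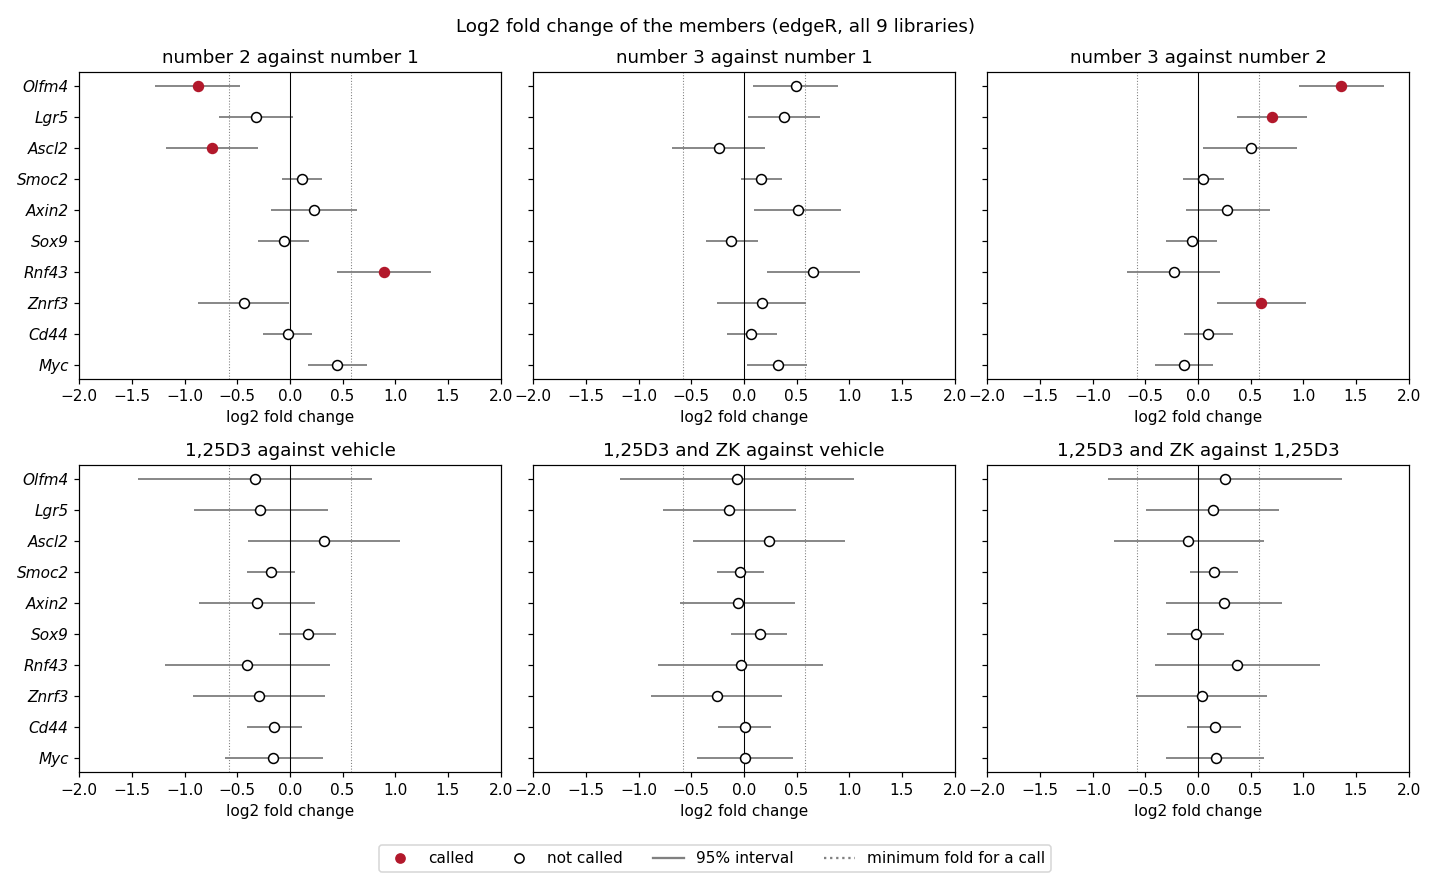
Log2 fold change of each of the 10 genes (horizontal axis) in the 3 comparisons of numbers (upper row) and of treatment labels (lower row), with bars for 95% intervals, filled points for called genes and dotted lines at the minimum fold for a call. Number 2 against 1 and number 3 against 2 each hold 3 called genes, *Olfm4* among them at -0.87 and 1.36, and no gene was called between treatment labels.

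Between treatment labels none of the 10 genes was called, and 0% of all genes were called in each of the 3 comparisons by edgeR, DESeq2 and limma voom. The genes with an unadjusted p under 0.05 in edgeR were 0.9% of all for 1,25D3 against vehicle, 0.16% for 1,25D3 and ZK against vehicle and 0.98% for 1,25D3 and ZK against 1,25D3, and none of the 10 was among them. With the number as a replicate block on the 6 libraries labelled vehicle and 1,25D3 and ZK, the pairing seen in the data, that share was 10.1%, 2 of all genes were called, and none of the 10 was called. In that fit *Olfm4* had an unadjusted p of 0.02 at a log2 fold change of -0.07 (adjusted p = 0.37 in edgeR) and *Znrf3* of 0.042 at -0.30 (adjusted p = 0.46). For 1,25D3 against vehicle the log2 fold changes of the 10 lay between -0.41 (*Rnf43*, 95% interval -1.19 to 0.38) and 0.32 (*Ascl2*, -0.40 to 1.04). For 1,25D3 and ZK against vehicle they lay between -0.26 (*Znrf3*) and 0.24 (*Ascl2*), and for 1,25D3 and ZK against 1,25D3 between -0.09 (*Ascl2*) and 0.37 (*Rnf43*). *Olfm4* averaged 264 ± 141 TMM CPM under the label vehicle, 211 ± 53.4 under 1,25D3 and 252 ± 134 under 1,25D3 and ZK (SD, n = 3). Its interval for 1,25D3 against vehicle ran from -1.44 to 0.78, so it held changes beyond the minimum fold in both directions. Without the library labelled vehicle 3 the log2 fold change of *Olfm4* turned from -0.33 to 0.14 for 1,25D3 against vehicle. For 1,25D3 and ZK against vehicle it turned from -0.07 to 0.41 without vehicle 3 and to 0.26 without 1,25D3 and ZK 2. *Cd44* was the only one of the 10 whose libraries did not overlap, 27.6 to 30.7 TMM CPM under 1,25D3 and ZK and 23.7 to 26.8 under 1,25D3, against 4.39% of all genes in this comparison. The shares were 3.96% and 1.79% of all genes, and 0 of the 10, for 1,25D3 and for 1,25D3 and ZK against vehicle.

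Within a number, the libraries labelled vehicle and 1,25D3 and ZK were close for most of the 10 genes. Of the 30 ratios of 1,25D3 and ZK to vehicle, 27 lay between 0.833 and 1.22. The others were *Ascl2* in number 1 (1.31), *Znrf3* in number 2 (0.609) and *Lgr5* in number 3 (0.793), the 3 genes with the fewest counts. The ratio was below 1 in all 3 numbers for *Olfm4* (0.981, 0.934 and 0.946) and *Rnf43* (0.950, 0.984 and 0.981), and above 1 in all 3 for *Sox9* (1.06, 1.11 and 1.16). The ratio of 1,25D3 to vehicle was 0.575 for *Olfm4*, 0.547 for *Axin2*, 0.538 for *Rnf43* and 1.64 for *Ascl2* in number 3, against 0.986, 0.947, 1.02 and 1.03 in number 1 and 1.13, 1.08, 0.820 and 1.15 in number 2. For *Olfm4* and *Axin2* number 2 thus lay on the other side of 1 from number 3. These are single libraries with no test.

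In 5 lists of other genes of the Wnt pathway, 9 of 61 tested entries (14.8%) were called between numbers 2 and 1, beside 20.4% of all genes. *Lgr4* and *Tcf7* each stand in more than 1 list, so the entries hold fewer distinct genes. Between numbers 3 and 2, 5 entries (8.20%) were called, beside 11.3%. Without the library labelled 1,25D3 3, 9 entries were called between numbers 3 and 2, beside 15.6% of all genes. Between numbers 3 and 1 it was 8 entries instead of 0, beside 19.2% of all genes. Of 8 ligands and R-spondins tested, *Wnt5a*, a stromal ligand, and *Wnt11* were called higher and *Wnt6* lower. *Wnt5a* was at 5.46 to 6.00 TMM CPM in number 2 and 3.13 to 3.99 in number 1, a log2 fold change of 0.65 (adjusted p = 0.0029 in edgeR) that was 0.56, under the minimum fold, without vehicle 1. *Wnt11* stayed under 1 TMM CPM in all libraries, and the adjusted p of *Wnt6* was 0.068 without 1,25D3 1 and 0.056 without 1,25D3 and ZK 2. Of 12 receptors and co-receptors 1 was called: *Lrp6*, the co-receptor of Frizzled, was at 26.4 to 34.2 TMM CPM in number 2 and 53.7 to 58.7 in number 1, a log2 fold change of -0.92 (SE 0.10, adjusted p = 0.00015 in edgeR). Of 18 intracellular carriers of the signal 1 was called: *Tnks*, a tankyrase that marks axin for degradation, was at 25.7 to 32.3 TMM CPM in number 2 and 45.7 to 51.4 in number 1, a log2 fold change of -0.78 (adjusted p = 0.00039 in edgeR). In number 3 *Lrp6* was at 50.4 to 56.2 and *Tnks* at 44.0 to 51.6 TMM CPM, and both were called higher there than in number 2, at log2 fold changes of 0.87 and 0.76. *Ctnnb1*, which encodes beta-catenin, had a log2 fold change of -0.06 (adjusted p = 0.58 in edgeR) between numbers 2 and 1.

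Of 6 secreted inhibitors, *Notum*, which removes the lipid of Wnt proteins, was called higher in number 2 than in number 1, at 1.05 to 1.34 against 0.376 to 0.649 TMM CPM, and *Sfrp5* lower, at 2.07 to 2.50 against 3.17 to 4.26. Both calls were lost with a library left out, at an adjusted p of 0.067 for *Notum* without 1,25D3 and ZK 1 and 0.061 without 1,25D3 and ZK 2, and of 0.063 to 0.078 for *Sfrp5* without 1,25D3 1, 1,25D3 and ZK 1, vehicle 2 or 1,25D3 2. Of 17 other target genes 2 were called higher: *Jun*, a subunit of the AP-1 transcription factor, at 74.9 to 82.1 against 42.1 to 45.2 TMM CPM (log2 fold change 0.87, adjusted p = 0.0017 in edgeR), and *Apcdd1*, a membrane inhibitor of Wnt signaling, whose adjusted p was 0.05 without vehicle 1 and 0.055 without 1,25D3 and ZK 1. *Ephb2*, a receptor that positions cells along the crypt, was the 1 of these 17 called between numbers 3 and 2, at 26.7 to 29.1 against 16.9 to 19.1 TMM CPM, a log2 fold change of 0.63 (adjusted p = 0.00021 in edgeR). Without the library labelled 1,25D3 3, 4 of the 17 were called in this comparison, beside 15.6% of all genes. Between numbers 3 and 1 it was 4 instead of 0, beside 19.2% of all genes. The median log2 fold changes of these 5 lists between numbers 2 and 1 ran from -0.08 to 0.21, against 0.03 over all genes. No gene of any list was called, or reached an unadjusted p of 0.05, between treatment labels by edgeR, and DESeq2 and limma voom called none.

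Of 20 other crypt stem cell genes, *Gkn3*, *Clu* and *Hopx* were called higher and *Aqp4* lower in number 2 than in number 1. That share is near the 20.4% of all genes called. Between numbers 3 and 2, 4 of the 20 were called, beside 11.3% of all genes. Without the library labelled 1,25D3 3 it was 8, beside 15.6%. Between numbers 3 and 1 it was 0, beside 0% of all genes, and 6 without that library, beside 19.2%. *Hopx*, a marker of reserve stem cells, was at 149 to 194 TMM CPM in number 2 and 63.8 to 64.7 in number 1, a log2 fold change of 1.45 (adjusted p = 9.2e-06 in edgeR), and *Aqp4*, a water channel of the crypt base, was at 4.33 to 6.28 against 15.9 to 16.9, a log2 fold change of -1.70 (adjusted p = 4.3e-05 in edgeR). *Gkn3*, also a gene of gastric mucous cells, was at 1167 to 1462 against 6.39 to 8.31 TMM CPM, and *Clu*, also expressed in many secretory tissues, at 115 to 122 against 2.96 to 4.09. In number 3 *Gkn3* was at 38.2 and 35.2 under vehicle and 1,25D3 and ZK but at 7.18 under 1,25D3, the same division as the acinar and Brunner gland markers below. Of the BMP pathway, *Bmp2*, a ligand that restrains stem cells, was at 28.2 to 32.8 TMM CPM in number 2 against 13.1 to 14.1 in number 1 (log2 fold change 1.18, adjusted p = 9e-06 in edgeR). The BMP target *Id3* was at 134 to 174 against 56.9 to 59.2 (1.43, adjusted p = 2.4e-05). *Grem1*, a BMP antagonist, was at 18.4 to 22.6 against 29.0 to 31.3 TMM CPM, a log2 fold change of -0.59 (adjusted p = 0.0023 in edgeR), which fell just under the minimum fold without any one of 4 libraries (vehicle 1, 1,25D3 and ZK 1, vehicle 2, or 1,25D3 and ZK 2), at -0.58 to -0.52. These were 3 of 13 genes of the BMP pathway, again near the share of all genes. Of 9 genes of the Notch pathway 1 was called, beside 20.4% of all genes. *Dll4*, a Notch ligand, was higher, at 11.8 to 13.6 against 7.32 to 8.98 TMM CPM (log2 fold change 0.64, adjusted p = 0.0013 in edgeR). Its fold fell to the minimum or under it without vehicle 1 (0.57) or 1,25D3 2 (0.58). Between numbers 3 and 2, *Dll4* was called lower and *Dll1* higher, 2 of the 9. *Dll1* fell under the minimum fold without vehicle 2, 1,25D3 and ZK 2 or vehicle 3. In the BMP pathway *Id3* and *Bmp2* were called lower, 2 of the 13. Both counts stand beside 11.3% of all genes. Without 1,25D3 3 they were 2 and 3, beside 15.6%.

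Of 16 proliferation genes none was called between any 2 numbers by edgeR, DESeq2 or limma voom. The unadjusted p in edgeR was under 0.05 for 10 of them for number 2 against 1. It was 5 for number 3 against 1, beside 26.3% of all genes, and 12 for number 3 against 2. An adjusted p under 0.05, a stricter limit, was reached by 5751 of 15002 genes for number 2 against 1. For number 3 against 2 it was reached by 3475 genes. The share of all genes at the unadjusted limit is not given for these comparisons, so the 10 and the 12 have no like background here. The median log2 fold change of the 16 genes was -0.23 for number 2 against 1, against 0.03 over all genes. For number 3 against 2 it was 0.39, against 0.01. The summed level of the 16 genes was 480 to 486 TMM CPM in number 1 and 480 in the library labelled 1,25D3 3. It was 431 to 436 in number 2, and 571 and 575 in the libraries labelled vehicle 3 and 1,25D3 and ZK 3. This order is that of *Olfm4*. Without the library labelled 1,25D3 3, 2 of the 16 were called between numbers 3 and 2, beside 15.6% of all genes. Between numbers 3 and 1, 2 were called as well, beside 19.2% of all genes. *Top2a* was among those called between numbers 3 and 2, at a log2 fold change of 0.64 (adjusted p = 1.5e-05 in edgeR).

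Markers of several other cell types differed between the numbers. Their calls between numbers 2 and 1 stand beside the same 20.4% of all genes. The 12 pancreatic acinar markers, all detected, summed to 54.3 to 63.0 TMM CPM in number 1, to 41970, 8784 and 40420 in number 2, and to 3757, 56.7 and 3682 in number 3, and all 12 were called higher in number 2 than in number 1. The 4 tested of 5 Brunner gland markers, led by *Tff2*, summed to 7.15 to 8.56 TMM CPM in number 1, 4790 to 5913 in number 2, and 150, 9.47 and 149 in number 3, and all 4 were called higher in number 2. The 8 fibroblast markers summed to 159 to 164 TMM CPM in number 1, 268 to 280 in number 2, and 319, 164 and 299 in number 3, and 7 of 8 were called higher in number 2 than in number 1. The library labelled 1,25D3 3 was thus at or close to the level of number 1 for all 3 lists, as it was for *Olfm4*, *Axin2*, *Rnf43* and *Myc*. The 10 Paneth markers summed to 4411 to 4624 TMM CPM in number 1, to 3362 to 4708 in number 2, and to 6603, 4598 and 6497 in number 3. Of these, 2 were called higher (*Pnliprp2* and *Defa21*) and 2 lower (*Ang4* and *Defa17*) in number 2 than in number 1. *Pnliprp2* was at 286, 89.7 and 269 TMM CPM in number 2 and at 40.9 to 44.6 in number 1. Like the acinar sum, it was lowest under 1,25D3 within numbers 2 and 3. *Defa21* was at most at 9.87 TMM CPM in any library. *Ang4* was at 64.3 to 101 TMM CPM in number 2 against 200 to 211 in number 1, and *Defa17* at 98.5 to 123 against 200 to 217. The 12 enterocyte markers summed to 58520 to 60300 TMM CPM in number 1, 52940 to 57790 in number 2, and 42550, 60960 and 42680 in number 3. Of these 12, 2 were called higher and 6 lower in number 2 than in number 1, with a median log2 fold change of -0.51. The brush border enzymes *Sis*, *Ace* and *Anpep* were among the lower, at log2 fold changes of -1.90, -1.52 and -1.21 (adjusted p = 0.00011, 0.01 and 0.023 in edgeR), and *Ada*, adenosine deaminase, was higher at 1.82 (adjusted p = 0.0005). The 12 leukocyte markers summed to 8200 to 8286 TMM CPM in number 1, 4485 to 5424 in number 2, and 6914, 8205 and 6847 in number 3. Of them 3 were called higher and 3 lower in number 2 than in number 1. Of the goblet markers 3 of 8 were called between numbers 2 and 1, of the enteroendocrine markers 2 of 10, and of the tuft, smooth muscle and endothelial markers 2 of 7 each. Of 8 genes of duodenal identity 1 was called higher and 1 lower, 6 were not called, and the list median was 0.01. *Pdx1*, a transcription factor of the proximal duodenum and pancreas, was at 135 to 174 TMM CPM in number 2 against 54.1 to 58.9 in number 1 (log2 fold change 1.50, adjusted p = 2.1e-05 in edgeR), and *Cdx1*, an intestinal transcription factor, at 47.6 to 50.8 against 88.3 to 97.7 (-0.93, adjusted p = 0.0018). The part of these cell types or positions in the levels of the 10 genes was not tested.

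**Figure D3:**
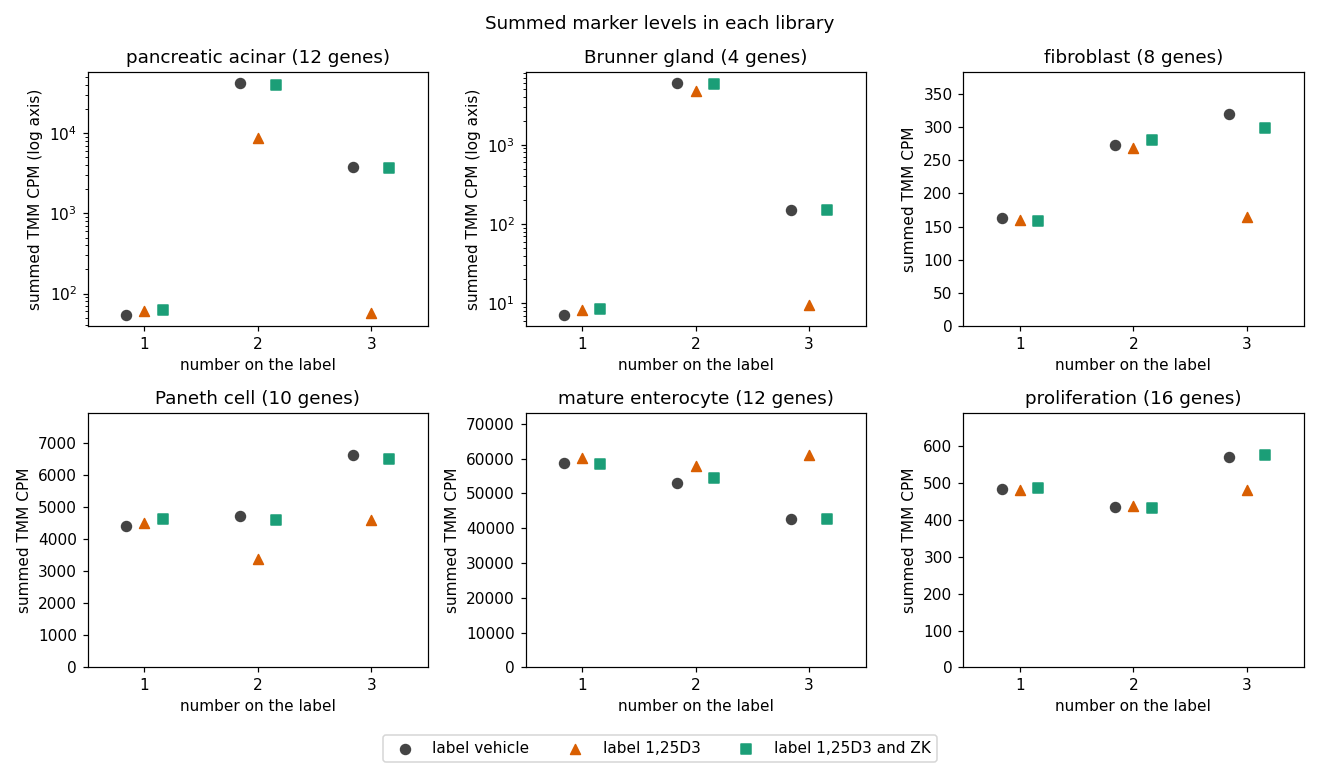
Summed TMM CPM (vertical axes, log axes for the pancreatic acinar and Brunner gland markers) of 6 gene lists in the 9 libraries, by number on the label (horizontal axis) and treatment label (symbol). The acinar sum was 8784 to 41970 in number 2 and 54.3 to 63.0 in number 1, and the library labelled 1,25D3 3 was at or close to the level of number 1 in all 6 panels.

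Summed over the 10 genes, the level was 374 to 382 TMM CPM in number 1, 284 to 294 in number 2, and 584, 366 and 560 in number 3. *Olfm4* made up 43.3% to 70.5% of these sums. Without it the 9 other genes summed to 129 to 132 TMM CPM in number 1, 145 to 162 in number 2, and 173, 129 and 170 in number 3, so number 2 was lowest only with *Olfm4* in the sum.

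Among 1008 other genes of sufficient level and range, those whose profile over the 9 libraries was closest to that of *Olfm4* were *Pdk4*, a kinase that inhibits pyruvate dehydrogenase, with a mean absolute difference of 0.067 on the centred log2 scale, *Spag5*, a mitotic spindle protein (0.070), and the pseudogene *9130208D14Rik* (0.075). For *Lgr5* they were *Slc25a37*, a mitochondrial iron importer (0.116), *Slc11a2*, the divalent metal transporter of enterocytes (0.125), and *Cry2*, a component of the circadian clock (0.125). *Lgr5* itself, at a mean of 2.91 TMM CPM and a log2 range of 0.9, was under both limits set for the compared genes. Genes as low or as even as *Lgr5* were thus not among those compared. *Pdk4*, for example, was at 34.1, 32.8 and 31.4 TMM CPM in number 1, 15.0, 19.8 and 16.7 in number 2, and 51.6, 33.1 and 53.5 in number 3. Within numbers 2 and 3 it was higher under 1,25D3 and ZK than under vehicle, where *Olfm4* was lower. These are likenesses over libraries that share their number, given as a description.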

How the data were processed

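Base calling by the authors used bcl2fastq 2.17.1.14. Single-end reads of stranded mRNA libraries were mapped onto mm10 (Tophat, Bowtie2), and those aligned to 1 place only were counted per gene by HTSeq. The strand setting and the annotation release are not given in the sources used here. The table the authors deposited holds raw counts for 48709 genes, of which 48349 identifiers matched GENCODE M21. Columns headed by a digit were matched to the sample described by that digit. By the study's legend, replicates are separate mice.

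Genes that exceeded 100 reads in total were scaled by TMM and tested in R 4.3.3 with the quasi-likelihood test of edgeR 4.0.16, all 9 libraries, 1 mean per treatment label or per number, and Benjamini-Hochberg adjustment over 15002 genes. The test was checked on simulated counts. Same-numbered libraries deviated together from their treatment means for vehicle with 1,25D3 and ZK (correlations 0.93, 0.95 and 0.89), so these were taken as paired, from the data. They did not for number 3 of the other comparisons (-0.03 and -0.01). The alternatives were DESeq2 1.42.0, limma 3.58.1 voom, DESeq2 size factors, other read filters, no minimum fold, blocks, a fit of only the 6 libraries of a comparison, and leaving out 1 library at a time. Named genes were the 10 members and, per list, up to 4 called genes of largest fold or the 2 of highest level. Members, lists and the comparison of numbers were chosen with earlier results of these data known. The libraries numbered 1 were close, as were vehicle with 1,25D3 and ZK within numbers 2 and 3. Those labelled 1,25D3 2 and 1,25D3 3 were far from the others of their number. What the number marks is not known, so p-values between numbers measure only the spread among these libraries. The genes closest in profile to *Myc* are not reported here.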

Additional observations from a re-analysis of the deposited data

Results flagged for a closer look

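The log2 difference between 2 numbers, taken within each treatment label from single libraries, ran opposite in 1 label to both others in 14 cases. None of these differences was tested, since each rests on 1 library per label and number. From number 1 to number 3 the label 1,25D3 stood apart for *Olfm4* (-0.05 against 0.72 and 0.67 for the other two labels), *Axin2* (-0.06 against 0.70 and 0.67), *Rnf43* (-0.03 against 0.88 and 0.93), *Myc* (-0.09 against 0.37 and 0.57), *Cd44* (-0.18 against 0.19 and 0.15), *Znrf3* (-0.10 against 0.42 and 0.08) and *Ascl2* (0.21 against -0.36 and -0.46). These 7 cases rest on the library labelled 1,25D3 3, which lay with number 1 across all genes.

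From number 2 to number 3 the label 1,25D3 stood apart for *Axin2* (-0.32), *Cd44* (-0.18) and *Sox9* (0.14). These cases also rest on the library labelled 1,25D3 3. The label vehicle stood apart there for *Smoc2* (-0.03). From number 1 to number 2 the label vehicle stood apart for *Znrf3* (0.03 against -0.54 and -0.70) and *Cd44* (-0.10), and the label 1,25D3 and ZK for *Sox9* (0.02).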

How the results depend on the processing

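Of the log2 fold changes recomputed for single genes, 899 kept their direction and their side of the threshold, 38 lost a call, 11 gained one and 3 turned sign, all 3 for *Olfm4* between treatment labels (0.14, 0.26 and 0.41). Between treatment labels these counts cover only *Olfm4*, *Rnf43* and *Cd44*, each in some of the comparisons. Whether the other members turned sign there is not in these counts. With 1 library left out, *Olfm4* ranged from -0.65 to 0.14 for 1,25D3 against vehicle and from -0.53 to 0.41 for 1,25D3 and ZK against vehicle. Number 2 against 1 went from 3067 to 5751 called genes and number 3 against 2 from 1702 to 3475 with no minimum fold, which widens the call by construction. Number 3 against 1 went from 0 to 398 called genes with DESeq2 and to 467 genes and 1 of the 10 members (*Rnf43*) with no read filter; the cause was not tested. With each library left out in turn it ranged from 0 to 2850 genes and from 0 to 3 members, the highest without 1,25D3 3. With the replicate block, all 9 libraries, 0 genes were called between treatment labels, and with the replicate block on only the 6 libraries compared 2 genes, none of them a member, were called for 1,25D3 and ZK against vehicle, the one paired comparison. The replicate block changed no other call. With the treatment label as a block, *Wnt11* lost its call for number 3 against 2 (adjusted p = 0.054 in edgeR). Depth limits *Lgr5*, *Ascl2* and *Znrf3* most, at 61 to 230 counts per library.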
